A study of Mus musculus with 4 samples.

Results

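Chromosome 4 carried 1762 of the 29838 replication initiation zones in the first of 2 lists (set 1) and 1555 of 26025 in the second (set 2). These 3317 zones were chosen only by the chromosome that the lists give. They are described here in a proximal part below 110 Mb, on the side of the centromere, and a distal part from 110 Mb onward, on the side of the telomere. The proximal part held 1251 zones of set 1 and 1072 of set 2, and the distal part held 511 and 483. In both sets the distal part listed fewer of the strongest zones per Mb than the distal part of any other autosome. In set 1 the margin was narrow, at 0.773 per Mb against 0.792 on chromosome 19, and by share of zones 3 of 18 were lower.

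The lists come from polymerase-usage sequencing in E14tg2a cells, a mouse embryonic stem cell line, in which alkali cuts genomic DNA at each embedded ribonucleotide and the cut sites are sequenced. All 4 samples carried Tet-OsTIR1::Rosa26(bi), a doxycycline-driven plant protein that directs tagged proteins to degradation, and mAID-RNaseh2a::puroR(bi), a degron on the catalytic part of RNase H2, which clears ribonucleotides out of DNA. The 2 samples of the parent line carried no other listed allele, and the 2 samples of the derived line also carried Pole1-M630F(bi), a mutant of DNA polymerase ε that leaves more ribonucleotides in the DNA it makes. Every culture had 24 h of doxycycline plus auxinole, which holds back degradation, followed by 12 h of doxycycline plus IAA, an auxin that starts it. Fragments of 300 to 2000 nt were taken for sequencing. Each set name is shared by 1 parent and 1 Pole1-M630F library. The sources used here do not say which of them entered each list, whether the lines are single clones, or whether the replicates were separate cultures, so the spread between sets may be technical. The lists hold no separate values for parent and mutant, so those lines were not compared, and read depth is unknown.

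DNA replication starts in many places along a chromosome, and in mammals these starts cluster in initiation zones within which forks leave at varied positions. DNA polymerase ε copies mainly the leading strand. Its ribonucleotides therefore change strand where forks part, and a zone appears as a region over which strand use switches. A zone used in many cells gives a sharper switch than one used in few. Mouse chromosome 4 has its centromere at the low-numbered end. Its distal part is related to the short arm of human chromosome 1 and is rich in genes.

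Positions are in GRCm39 on a grid of 1 kb, and a zone or stretch is named by the starts of its first and last 1 kb bin. The score of a zone is the authors' own number with no stated unit, so it was ranked, summed or divided by width within a set only, and its levels were not compared between sets. Set 1 and set 2 are given side by side throughout as the 2 replicates. No zone crossed 110 Mb. The last zone before it ended at 109945000 in set 1, with a score of 5.92, and at 109929000 in set 2, with a score of 183. The first zone after it began at 110135000 in set 1, with a score of 90.5, and at 110051000 in set 2, with a score of 0.285. Chromosome and boundary were proposed with the zones already known, so differences between the parts are descriptions with no test. Each was set against the same difference on the 18 other autosomes, cut at the same share of their span (69.7%).

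As a whole, chromosome 4 was close to the other autosomes in the number and width of its zones. It listed 11.5 zones per Mb in set 1, where the other autosomes averaged 11.6 ± 0.306 (SD, n = 18 chromosomes). Set 2 listed 10.1 per Mb against 10.1 ± 0.212. Zones had median widths of 18 kb (set 1) and 23 kb (set 2), and the other autosomes averaged 18.8 kb ± 1.15 and 22.8 kb ± 1.35. All 4 values lay within 1 SD of the mean of the other chromosomes.

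Zones covered 31.3% of the 154 Mb between the first and last zone in set 1 and 32.7% in set 2. The other autosomes averaged 32.0% ± 0.910 in set 1, where 16 of 18 were covered more, and 32.9% ± 0.815 in set 2, where 12 of 18 were. The highest 10% of scores of each set made up a somewhat lower share of zones on the chromosome. It held 156 such zones in set 1, or 8.85% of its zones, and 134 in set 2, or 8.62%, where by construction 10% of all autosomal zones of a set belong to this class. Of the 18 other autosomes, 2 had a lower share in set 1 and 0 had one in set 2.

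In set 1 the share was lower in the distal part than in the proximal part, and in set 2 it was below 10% only in the distal part. Below 110 Mb, 120 of 1251 zones of set 1 (9.59%) and 116 of 1072 zones of set 2 (10.8%) were among the highest 10%. From 110 Mb onward, 36 of 511 (7.05%) and 18 of 483 (3.73%) were. Per Mb, the proximal part listed 1.12 strong zones in set 1 and 1.08 in set 2, and the distal part 0.773 and 0.387. Both sets thus had fewer strong zones per Mb in the distal part, and set 2 had the larger gap.

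Distal parts of the other autosomes averaged 1.12 ± 0.210 strong zones per Mb in set 1 and 0.881 ± 0.191 in set 2 (SD, n = 18). In neither set was any of them as low per Mb as chromosome 4. The nearest were chromosome 19 in set 1 (0.792 per Mb) and chromosome 11 in set 2 (0.555 per Mb). By share of zones, 3 of 18 were lower in set 1 (chromosome 14 lowest, at 6.62%) and 0 in set 2. In set 1 the distal part of chromosome 4 also had fewer zones of any score per Mb (10.97) than all 18 other distal parts. The proximal part was placed among its peers, with 13 of 18 higher in set 1 and 10 of 18 higher in set 2. Measured as distal minus proximal, chromosome 4 gave -0.349 per Mb in set 1 and -0.698 in set 2. The other autosomes averaged -0.0611 ± 0.241 and -0.188 ± 0.239, and 2 of 18 were lower than chromosome 4 in set 1 and 0 in set 2.

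**Figure D1:**
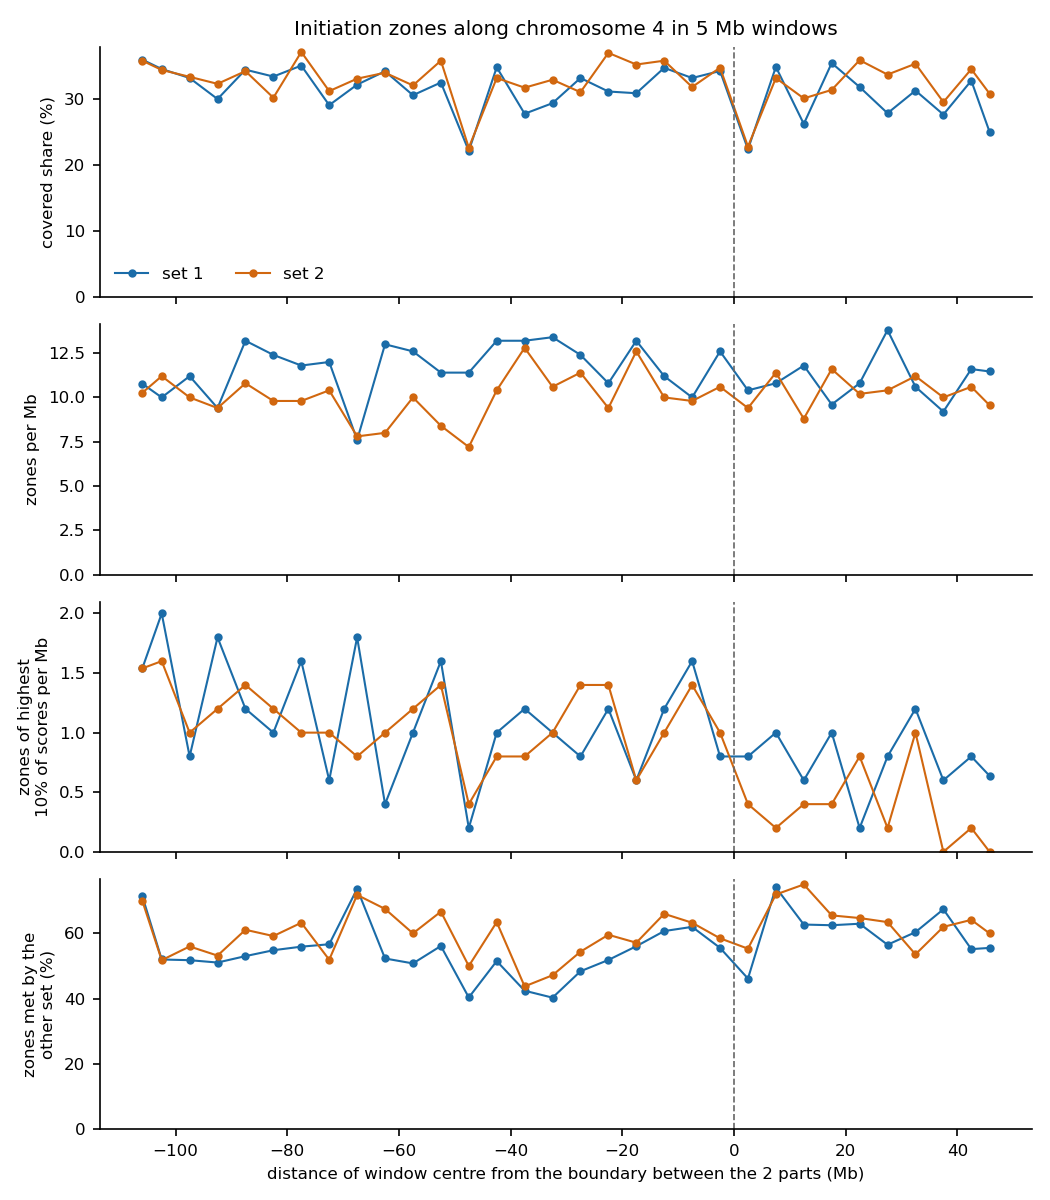
Zones of chromosome 4 in 5 Mb windows, plotted by the distance of the window's centre from the boundary between the parts (dashed line), for set 1 (blue) and set 2 (orange). From top to bottom: the covered share, zones per Mb, zones of the highest 10% of scores per Mb, and the share of zones met by a zone of the other set. The third panel lies lower to the right of the line, and the top panel dips in the windows from 60 to 65 Mb and from 110 to 115 Mb in both sets.

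A narrower class gave a starker count. Among the highest 5% of scores, the proximal part held 64 zones of set 1 and 68 of set 2, and the distal part held 17 and 1, fewer per Mb than any other distal part in both sets. In the wider class of the highest 20%, the distal part held 92 zones of set 1 and 63 of set 2, with 2 of 18 other distal parts lower per Mb in set 1 and 0 in set 2. The single distal zone of set 2 among the highest 5% spanned 144049000 to 144166000, with a score of 105. The top proximal zone of set 2, at 86752000 to 86901000, scored 211 and ranked 19 of 24245 autosomal zones of its set, where the distal one ranked 1126. In set 1 the top proximal zone, at 87919000 to 88068000, scored 189 and ranked 12 of 27871, and the top distal zone, at 111484000 to 111590000, scored 120 and ranked 343. The highest distal score of set 2 was below that of all 18 other distal parts, and that of set 1 was below 17 of 18.

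The comparison by equal share cuts other chromosomes into parts of other lengths, so runs of equal length were counted too. From 110 to 155 Mb, 9 adjacent windows of 5 Mb held 53 strong zones in both sets together. The other autosomes hold 290 such runs of 45 Mb, which overlap one another. Their median was 99 strong zones and their lowest 59, on chromosome 7 from 5 Mb. Set 2 alone had 18 in the distal run, with a lowest of 30 elsewhere. Set 1 alone had 35, and 6 of the 290 runs had as few or fewer.

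Zones strong in both sets were also few in the distal part. Overlapping pairs in which both zones belonged to the highest 10% numbered 77 in the proximal part (0.720 per Mb) and 9 in the distal part (0.193 per Mb). Other distal parts averaged 0.547 ± 0.217 per Mb (n = 18), and the lowest was chromosome 19 with 0.226. All but 1 of the strong distal zones met some zone of the other set, 35 of 36 in set 1 (97.2%) and 18 of 18 in set 2 (100%), close to the 98.3% and 99.2% over the other distal parts. Fewer met a strong one. In set 1 this was 9 of 36 (25.0%) in the distal part and 77 of 120 (64.2%) in the proximal part, and in set 2 it was 8 of 18 (44.4%) and 76 of 116 (65.5%). Over the other distal parts pooled, the shares were 48.8% in set 1 and 62.0% in set 2. Most strong distal zones of set 1 thus met set 2 zones of lower rank. With 36 strong distal zones in set 1 and 18 in set 2, these counts alone limit the strong pairs and the set 1 share. Whether the sets agreed less than the counts imply was not tested.

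The best-ranked pairs were picked by the same scores, so they name zones behind this contrast and add no support to it. They are the best 5 of 733 overlapping pairs in the proximal part and of 358 in the distal part. The larger pool can reach higher ranks by its size alone. In the proximal part the pair with the highest mean rank was 77186000 to 77273000 in set 1 and 77108000 to 77273000 in set 2, above 99.8% and 99.3% of autosomal zones of its set. The next began at 85060000 in set 1 and 85065000 in set 2, at the 99.3 and 99.6 percentiles. The others among the 5 best proximal pairs began in set 1 at 74133000, 109486000 and 109761000, so that 2 of the 5 lie within 1 Mb of the boundary. All 5 had a mean percentile above 99.

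In the distal part the best pair was 111484000 to 111590000 in set 1 (98.8 percentile) and 111505000 to 111587000 in set 2 (94.7 percentile). A pair at 127203000 to 127295000 and 127212000 to 127291000 reached the 97.5 and 93.7 percentiles, with midpoints 2.5 kb apart. A neighbour at 126813000 in set 1 and 126840000 in set 2 reached 97.2 and 91.0. The remaining 2 of the 5 share 1 zone of set 2, the one at 144049000 to 144166000, which set 1 lists as separate zones at 143996000 to 144065000 and 144116000 to 144186000. Of the 9 strong distal pairs, 5 have set 1 zones that begin between 142926000 and 144866000, and the 9 include 1 set 2 zone counted with 2 zones of set 1.

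What the distal part lacked in strong zones it had in zones of middle to high rank. Zones above the median score but below the highest 10% made up 46.2% of the distal part in set 1 and 47.6% in set 2. In the proximal part they made up 39.6% and 38.8%. Other distal parts averaged 39.9% ± 1.95 and 41.0% ± 3.37, and 0 of 18 in set 1 and 1 of 18 in set 2 had a larger share. The distal part was also poor in the lowest 10% of scores in set 1, with 6.26% of its zones there, while set 2 had 9.94%. Its median zone accordingly ranked at or above that of the proximal part, at percentile 53.8 against 49.3 in set 1 and 51.1 against 49.8 in set 2.

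**Figure D2:**
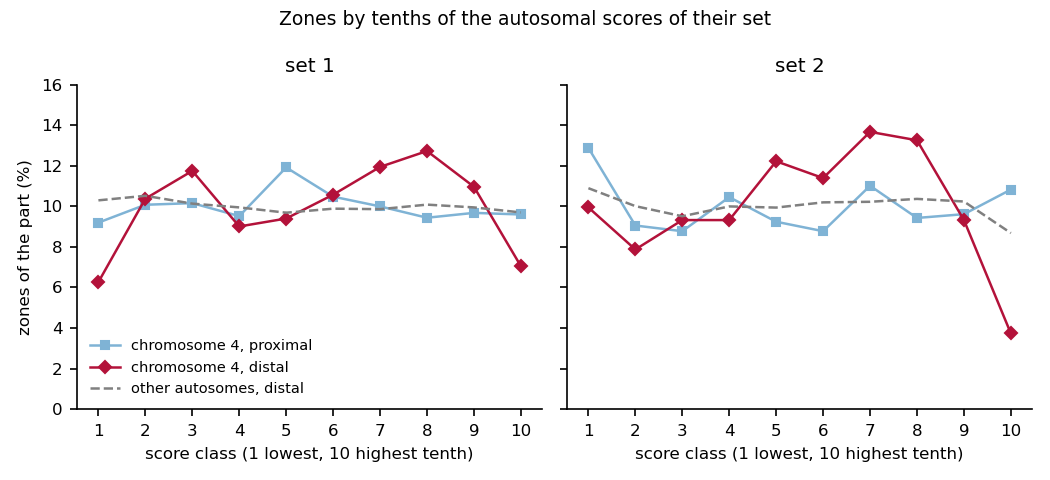
Share of zones (y axis, %) in each of 10 equal classes of the autosomal scores of their set (x axis, 1 lowest to 10 highest), for the proximal part (blue squares) and the distal part (red diamonds) of chromosome 4 and for the distal parts of the other autosomes (grey dashes). In both sets the red line lies above the others in classes 7 and 8 and below them in class 10, at 7.05% in set 1 and 3.73% in set 2.

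Wide zones of the distal part had low scores per kb. Zones of 50 kb or more numbered 98 in set 1 and 115 in set 2, or 2.10 and 2.47 per Mb. No other distal part had fewer per Mb in either set, but the margin was narrow. The nearest were chromosome 14 in set 1 (2.108) and chromosome 11 in set 2 (2.4984). By share of zones (19.2% and 23.8%), 6 of 18 other distal parts were lower in set 1 and 3 of 18 in set 2. The wide zones of the distal part had a median score per kb of 0.712 in set 1, where the other distal parts averaged 0.824 ± 0.0545. In set 2 it was 0.695, where they averaged 0.821 ± 0.0527 (n = 18). Chromosome 4 was the lowest of the 19 in both sets. In its proximal part the wide zones had 0.822 and 0.881, with 10 of 18 other autosomes higher in each set. Zones of 10 to 49 kb showed no such order, with 0.503 in the distal and 0.473 in the proximal part in set 1, and 0.398 and 0.411 in set 2.

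**Figure D3:**
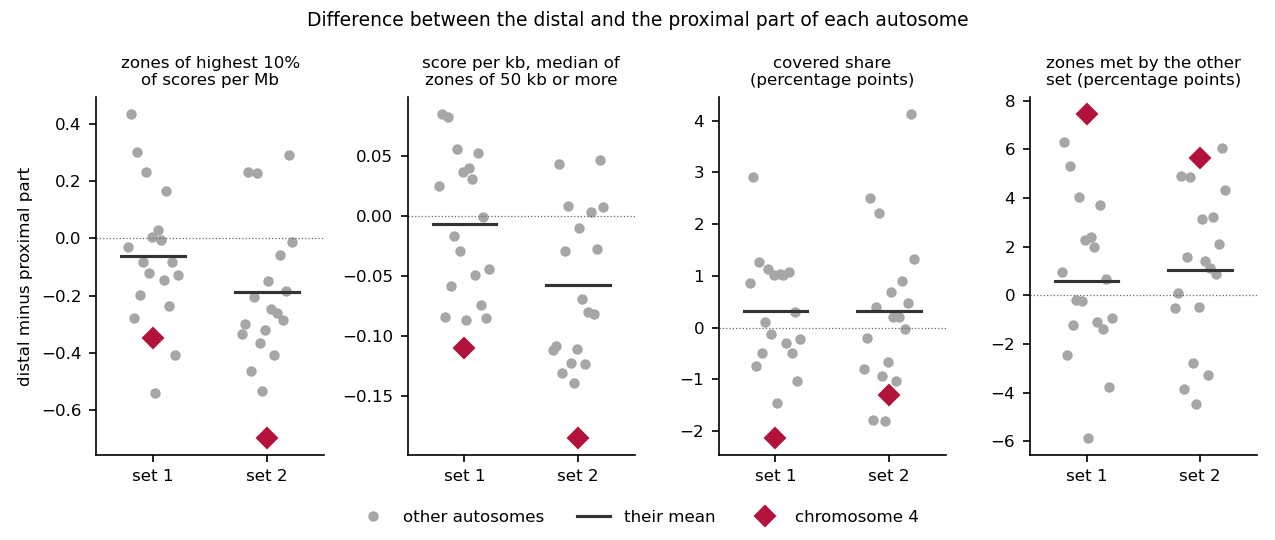
Distal minus proximal difference on each autosome in set 1 and set 2, for 4 measures named above the panels, with chromosome 4 as red diamonds, the other 18 autosomes as grey points spread sideways for legibility, and their mean as a bar. Chromosome 4 lies lowest for the score per kb of wide zones in both sets and for strong zones per Mb in set 2, and highest for the share of zones met in set 1.

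Summed over all zones, the distal part carried less score per Mb than the distal part of any other autosome, in both sets. The sum was 199.6 per Mb in set 1, against 229.7 ± 13.7 over the other distal parts, and 194.7 in set 2, against 240.4 ± 17.2. Chromosome 14 was close in set 1, at 202.2. Of the 290 runs of 45 Mb on other autosomes, 4 had as low a summed score per Mb in set 1 and 0 in set 2. The proximal part of chromosome 4 had 229.1 and 257.3. All 9 distal windows of 5 Mb lay below the median window of the other autosomes in both sets. In the proximal part 13 of 21 windows did so in set 1 and 9 of 21 in set 2.

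The number of zones did not separate the parts in the same way in both sets. Set 1 listed 11.7 zones per Mb in the proximal part and 10.97 in the distal part, and set 2 listed 10.02 and 10.4. The difference was -0.724 in set 1, lower than on all 18 other autosomes, and 0.348 in set 2, where 8 were higher and 10 lower. Its sign thus depends on the set. The median distance from one midpoint to the next was 76 kb in the proximal and 78.5 kb in the distal part in set 1. In set 2 it was 90 kb and 85.75 kb.

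Widths differed little. The median was 18 kb in the proximal and 19 kb in the distal part for set 1, and 22 kb and 24 kb for set 2. Without zones of 1 bin, the mean gap of the sets was 0 kb. The single widest zone was shorter in the distal part, which also holds fewer zones to draw it from, and other autosomes were not compared. In the distal part it measured 126 kb in set 1, at 110135000 to 110260000, and 122 kb in set 2, at 123525000 to 123646000. In the proximal part it measured 167 kb in set 1, at 108169000 to 108335000, and 183 kb in set 2, at 90006000 to 90188000. Zones of a single bin made up 8.61% of the distal and 11.8% of the proximal part in set 1, where 11.4% of all autosomal zones are of 1 bin. In set 2 they made up 10.97% and 10.2%, where 10.2% of all are.

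Covered length was lower in the distal part, by more in set 1. Zones covered 29.8% of it in set 1 and 31.8% in set 2, and 32.0% and 33.0% of the proximal part. Other distal parts averaged 32.2% ± 0.770 and 33.1% ± 1.08, with 18 of 18 above chromosome 4 in set 1 and 15 of 18 in set 2. With the boundary at 120 Mb, which moves the sparse stretch after 110 Mb to the proximal part, the difference of -1.29 percentage points in set 2 became 0.179.

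Along the chromosome, coverage was even apart from a few windows that were low in both sets. Of 30 full windows of 5 Mb, the lowest in the proximal part ran from 60 to 65 Mb, with 22.1% in set 1 and 22.6% in set 2. The lowest in the distal part ran from 110 to 115 Mb, with 22.4% and 22.8%. The highest proximal window in both sets ran from 30 to 35 Mb (35.02% and 37.1%). The distal window highest by the mean of the sets ran from 115 to 120 Mb (34.8% and 33.1%), but set 1 alone was highest from 125 to 130 Mb (35.4%) and set 2 alone from 130 to 135 Mb (35.8%). The sets thus shared their least covered window in each part, but not their most covered distal window. The window from 40 to 45 Mb combined few zones, 38 in set 1 and 39 in set 2, with ordinary coverage of 32.1% and 33.04%, with a median width of 35 kb and 41 kb. It was picked out after its values were seen.

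Windows of 1 Mb, ordered by the mean of the sets, set these troughs apart more finely. In the proximal part the 3 least covered began at 60 Mb (11.7% in set 1 and 5.90% in set 2), 42 Mb (7.80% and 10.3%) and 61 Mb (14.9% and 6.50%). The 3 least covered distal windows began at 112 Mb (6.20% and 5.90%), 121 Mb (15.8% and 14.5%) and 146 Mb (12.2% and 19.8%). The 3 proximal windows were the lowest in each set alone too, whereas in the distal part the window at 113 Mb was lower than that at 121 Mb in set 1 (13.3%) and the one at 122 Mb was lower than that at 146 Mb in set 2 (18%). The window at 112 Mb held 6 zones of set 1 and 3 of set 2, and none of them overlapped. All but the one at 146 Mb meet a zone-free stretch of 500 kb or more.

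The most covered 1 Mb windows, again by the mean of the sets, differed in how many strong zones they held. The one that began at 44 Mb was covered to 51.6% in set 1 and 39.9% in set 2 and held 4 and 2 strong zones. It begins 1 Mb beyond the trough at 42 Mb. The next in the proximal part began at 99 Mb (38.2% and 48.1%) and 106 Mb (38.5% and 45.6%). In the distal part they began at 144 Mb (40.1% and 42.1%), 148 Mb (41.7% and 38.6%) and 125 Mb (41.9% and 36.5%). These tops differed between the sets. In set 1 alone the window at 48 Mb (44.3%) was above those at 99 and 106 Mb, in set 2 alone the one at 59 Mb (47.5%) was above that at 106 Mb, and the window at 130 Mb was the highest distal one in set 2 alone (47.7%). The window at 144 Mb held 4 strong zones of set 1 and 3 of set 2, while that at 148 Mb held 0 in both. In set 2, 34 of 46 distal windows (73.9%) held no strong zone, against 27 of 106 (25.5%) proximal windows and 30.3% of windows on other autosomes. In set 1 the shares were 41.3%, 28.3% and 24.3%.

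Most autosomes had no stretch of 500 kb or more without a zone of either set, and chromosome 4 had them in both parts. There were 4 of 500 kb or more, 2.51 Mb in all, or 2.61 per 100 Mb, and no other autosome had as many per Mb. The other 18 autosomes held 9 together, on 4 of them, with chromosome 14 next at 2.46 per 100 Mb. With a minimum of 250 kb chromosome 4 held 7, and 2 autosomes had more per Mb. With a minimum of 100 kb it held 106, and 12 had more per Mb. With a minimum of 1000 kb it held 0, and 3 others held 1 each, the longest of 2095 kb on chromosome 5. By share of the span in stretches of 500 kb or more, chromosome 4 (1.64%) came after chromosomes 7 (2.02%), 5 (1.76%) and 14 (1.67%). Its first rank thus holds for the number of stretches at 500 kb, not for their length or at the other minimums.

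At minimums of 500 and 250 kb the distal part held the most per Mb of the 19. It held 2 of the stretches of 500 kb or more and 5 of those of 250 kb or more, where the distal parts of all 18 other autosomes together held 1 and 5. Per 100 Mb this was 10.7 stretches of 250 kb or more, against 0.669 ± 1.13 (n = 18). At 100 kb, 7 other distal parts had more per Mb, and at 1000 kb 1 had. The proximal part held 2 of each, at 1.87 per 100 Mb against 2.27 ± 3.24 at the lower minimum. Assembly gaps and sequence that cannot be mapped uniquely were not analysed here, so these stretches can include either.

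The longest ran from 41843000 to 42704000, 862 kb, in the proximal part. A zone of 66 kb in set 2 ended at its left edge, with a score above 85.6% of zones, and a zone of 27 kb in set 1 began at its right edge. The 1 Mb on either side was covered to 32.0% in set 1 and 38.3% in set 2, no less than the chromosome as a whole. The other proximal stretch, 527 kb from 60806000 to 61332000, lay in sparser surroundings, covered to 22.7% in set 1 and 19.2% in set 2.

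Both distal stretches of 500 kb or more were flanked by narrow zones, of 1 to 5 kb. The one from 111904000 to 112457000 (554 kb) was bounded by a zone of 1 bin in set 1 and one of 5 kb in set 2, and a further stretch of 355 kb began at 112863000. The surroundings were covered to 21.0% in set 1 and 20.1% in set 2. The one from 121597000 to 122167000 (571 kb) ended at a zone of a single bin at 122168000, listed only in set 2 with a score of 17.4. A second stretch of 284 kb followed, so that 856 kb up to 122452000 held nothing but that bin. The remaining stretch of 250 kb or more, 387 kb from 145627000, was bounded by wide zones of set 2 on both sides (67 kb and 53 kb).

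**Figure D4:**
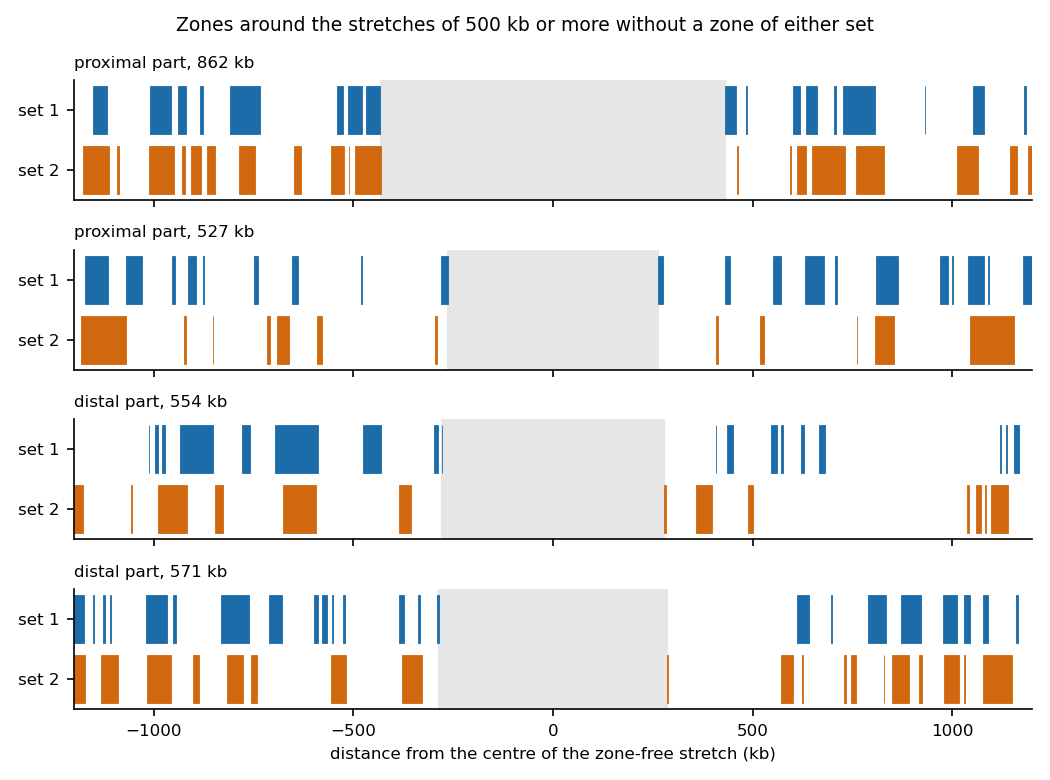
Zones of set 1 (blue, upper row) and set 2 (orange, lower row) within 1200 kb of the centre of the 4 stretches of 500 kb or more without a zone of either set (grey), with the distance from the centre in kb on the x axis. The 862 kb proximal stretch has flanks covered to 32.0% and 38.3%, and the 571 kb distal stretch is followed by a single bin of set 2 and a further 284 kb without a zone.

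Agreement of the sets depended on how it was counted. By an overlap of at least 1 bin, 972 of 1762 zones of set 1 (55.2%) and 931 of 1555 zones of set 2 (59.9%) met one in the other list, where 56.3% and 60.2% of all autosomal zones do. The chromosome as a whole was thus close to the background. In the distal part 60.5% of set 1 and 63.8% of set 2 were met, and in the proximal part 53.0% and 58.1%. The difference of 7.47 percentage points in set 1 was larger than on all 18 other autosomes, and that of 5.65 in set 2 was larger than on 17 of 18. The distal share itself was exceeded by 3 of 18 other distal parts in set 1 and by 2 in set 2. The proximal share was the lowest of the 19 in set 1, and 15 of 18 were higher in set 2.

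The difference between the parts was larger among zones at or below the median score than among those above it. Among zones at or below the median score, 39.7% of the distal and 32.4% of the proximal zones were met in set 1, and 45.1% and 33.1% in set 2. Other distal parts averaged 35.6% ± 3.17 in set 1, with 3 of 18 higher, and 36.6% ± 3.92 in set 2, with 0 higher. Above the median the shares were 78.7% and 74.3% in set 1 and 81.5% and 83.5% in set 2. Other distal parts averaged 78.7% ± 3.92 and 85.8% ± 1.95, so that the distal part of chromosome 4 was at their mean in set 1 and the lowest of the 19 in set 2. Under a reciprocal overlap of 50% or more, the distal part no longer led, with 17.2% against 17.6% in set 1 and 18.2% against 20.5% in set 2, where 18% and 20.7% of all autosomal zones pass. By midpoints within 10 kb it had 26.03% against 24.2% in set 1 and 27.7% against 28.2% in set 2, where 25.1% and 28.8% pass. The order of the parts thus held in both sets only for the loosest of the 3 rules.

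Counted by bins, the sets shared less of the distal part. Bins covered in both sets made up 14.0% of the distal and 16.4% of the proximal part. Of the bins covered in either set, both covered 29.4% in the distal part and 33.8% in the proximal part, and 17 of 18 other distal parts were above 29.4%. The share covered in both was 1.48 times the product of the sets' own covered shares in the distal part and 1.55 times in the proximal part, with an average of 1.55 ± 0.0800 over the other distal parts. Relative to that product, then, the distal part lay within 1 SD of its peers.

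Across the 152 full windows of 1 Mb, the covered shares of the sets had a rank correlation of 0.353, and 13 of the 18 other autosomes had a higher one (mean 0.402 ± 0.0716). It was 0.270 over the 144 windows that meet no zone-free stretch of 500 kb or more. Summed scores correlated better, at 0.556 (mean of the others 0.572 ± 0.0569). For summed scores it was 0.626 over the 106 proximal windows and 0.258 over the 46 distal ones. For covered share the order was the opposite, at 0.329 and 0.427. Windows are neighbours on 1 chromosome and share its libraries, so these correlations are descriptions.

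**Figure D5:**
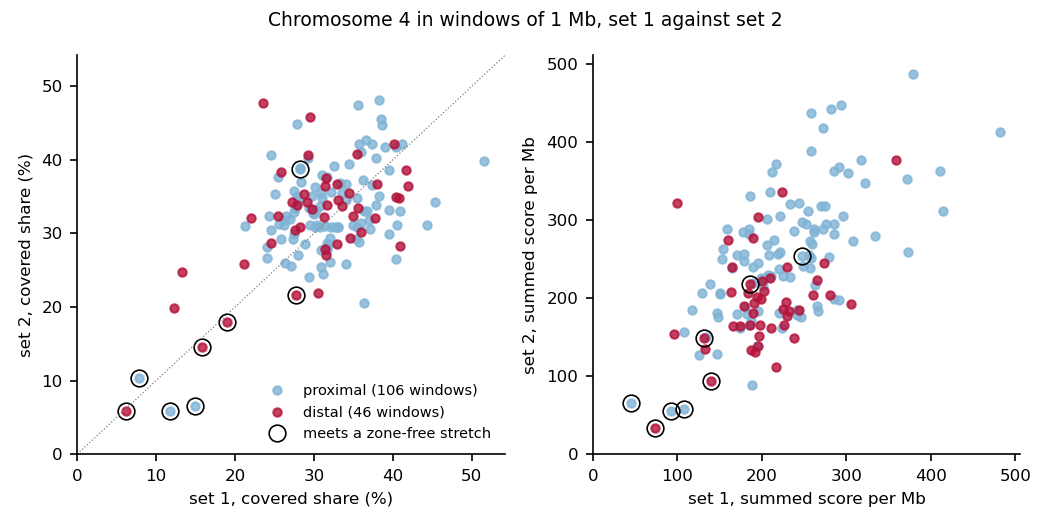
Covered share (left, %) and summed score per Mb (right) of each 1 Mb window of chromosome 4 in set 1 (x axis) and set 2 (y axis), for proximal (blue) and distal (red) windows. Circles mark windows that meet a stretch of 500 kb or more free of zones of both sets, and the dotted line on the left marks equal values, while the score axes have separate scales. The least covered windows are low in both sets, while 37 of 46 distal windows in set 1 and 40 of 46 in set 2 have a summed score below the median window of the other autosomes.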

How the data were processed

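The authors deposited 2 zone lists that give a chromosome, a first and a last coordinate, and a score for each zone. Per the submitters' processing notes, Bowtie2 aligned the reads and the build was GRCm39. The sources used here do not state the aligner's version, how zones were called or what the deposited score measures. Many zones have equal coordinates, so the last one was taken as the start of the final 1 kb bin. Chromosomes 1 to 19 were used. Zones were placed by midpoint, ranked by score within a set, and counted as met by an overlap of at least 1 bin. A chromosome's span was bounded by its outermost zones in the sets combined. Named regions follow a fixed rule: the 5 best-ranked pairs, the top and widest zones, the extreme windows, the zones beside 110 Mb and the zone-free stretches of each part. Exceptions are stated. The chromosome, boundary, measures and lists were chosen with earlier results of these data known. Strong zones, wide zones and runs of windows were counted after the data were seen. No test was made, and with depth unknown no counting interval was possible. The code of some measures was checked on simulated lists with planted overlap and score. Zones in those lists had equal widths and scores unrelated to width, unlike the data, so this check says nothing about the results. The gene tables at hand are on GRCm38.p6, so genes and sequences were not analysed here. The software was Python 3.11.15 with NumPy 2.4.6, SciPy 1.17.1, pandas 2.3.3 and Matplotlib 3.10.9.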

Additional observations from a re-analysis of the deposited data

How the results depend on the processing

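No paired analysis was possible because each list has a single value per zone and the lines were not listed apart. Values here are means of the sets, and "without 1 set" leaves the other alone. Distal minus proximal zones per Mb was -0.188, became 0.221 for zones at or above the median score, and ran from -0.724 to 0.348 without 1 set. The width difference of 1.5 kb became 0 kb without zones of 1 bin, 0 kb with the last position as a plain interval end, and -5 kb for zones at or above the median score. The covered-share difference of -1.72 percentage points became -0.666 with the boundary at 120 Mb. The score-percentile difference of 2.87 became -3.58 for zones at or above the median score. The difference in zones met, 6.56 percentage points, became 3.88 without zones of 1 bin, 0.722 for zones at or above the median score, 1.81 with plain interval ends, 0.689 by midpoints within 10 kb and -1.33 by reciprocal overlap. Against the other autosomes, zones per Mb (-0.0505) became 0.0913 with zone-free stretches left out and 0.00173 for zones at or above the median score, and ran from -0.128 to 0.0273 without 1 set. Median width (-0.292 kb) ran from -0.806 to 0.222. Covered share (-0.447) became -0.0244 with zone-free stretches left out. Zones met (-0.888) became -0.0512 without zones of 1 bin, -2.19 for zones at or above the median score and 0.0810 with plain interval ends. The 4 zone-free stretches became 7 at a minimum of 250 kb and 0 at 1000 kb. The correlation of covered shares, 0.353, became 0.453 in windows of 5 Mb, 0.419 in windows moved by 0.5 Mb, 0.260 for zone number, 0.556 for summed score, 0.560 as Pearson's r and 0.270 without windows that meet a zone-free stretch. For strong zones and strong pairs the alternatives were chosen after seeing the data. The difference of -0.524 strong zones per Mb became -0.261 for the widest 10% of zones, and that of -0.527 strong pairs became -0.275 for the highest 5% of scores. Of 67 alternatives other than leaving out a set, 40 kept their direction within a tolerance, 20 moved beyond it and 7 reversed. The tolerance was the SD between sets, except for 2 kinds of result. Zone-free stretches and strong pairs had to stay within 1.5 times, and the window correlation within a small fixed difference. For distal minus proximal zones per Mb the SD (0.758) exceeded the size of the difference, so staying within it says little. The same held against the other autosomes for zones per Mb (SD 0.110) and median width (SD 0.727 kb). Each SD rests on the 2 sets alone. The cause was not tested. Depth, and with it the error of any one zone, is unknown.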
